A study of Mus musculus with 18 samples.

Results

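The genes described here encode the muscle actins and the proteins that act with them in smooth muscle contraction. The 10 genes are Acta1, Acta2, Actc1, Actg2, Tagln, Cnn1, Myl9, Tpm1, Tpm2 and Des, and they were taken by symbol from the 53672 genes listed in each library. RNA-seq was done on E14TG2a mouse embryonic stem cells (ESCs) in which both endogenous genes, Hdac1 and Hdac2, are conditional (Hdac1/2 lox/lox). Each of 3 lines carried a stably expressed, Flag-tagged rescue construct, namely HDAC1-WT, HDAC1-E63R or HDAC1-Y48E. Each line was sequenced untreated and after 4-hydroxytamoxifen (OHT, 1 µM), which removes the endogenous HDAC1 and HDAC2, with 3 libraries in each of 6 groups and 18 in total. The labels give 5 days for both states, whereas the methods give a shorter OHT exposure followed by further culture. By design, untreated cells of every line hold the endogenous enzymes together with the construct, and OHT-treated cells hold the construct alone. The constructs were introduced with the piggyBac transposon, and whether a line is 1 clone or a pool is not stated. The mutations lie on the surface through which HDAC1 binds corepressors with ELM2-SANT domains, and SIN3 binds mainly elsewhere. In the study, HDAC1-Y48E kept SIN3 binding only. HDAC1-E63R kept binding to SIN3, MIER and RERE and some to CoREST, with that to NuRD and MiDAC reduced. The question is how gene expression changes when only the construct is left.

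Muscle actins are near-identical proteins that are encoded by separate genes, and each is used mainly in skeletal muscle (Acta1), cardiac muscle (Actc1), vascular smooth muscle (Acta2) or enteric smooth muscle (Actg2). Filaments of these actins are bound by tropomyosins (Tpm1, Tpm2), calponin (Cnn1) and transgelin (Tagln), and contraction is switched on through the myosin regulatory light chain (Myl9). Most of these genes are classical targets of serum response factor (SRF), which binds a CArG box, and of its actin-sensing cofactors MRTFA and MRTFB, and in pluripotent cells they are usually low.

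Levels are counts scaled to the TMM-adjusted library size on genes (CPM), and log2 fold changes are from edgeR's quasi-likelihood F test on all 18 libraries. The ± value beside a log2 change is an approximate standard error, the absolute log2 change divided by the square root of its F statistic. It is unreliable where a group has few or no counts. A gene was called when the adjusted p was under 0.01 and the change was more than 2-fold. The 3 libraries of a group are called biological replicates in the study, and since nothing says whether they were separate cultures, the p-values measure the spread between these libraries, which may be technical. Each construct was carried by a single line. In every comparison between lines, the mutation, the line and its construct level therefore cannot be told apart, and no p-value measures the spread between lines of the same construct. Depth was 9019615 to 11454638 counts on genes, and a limit of 3 counts, which a count of 0 allows, corresponded to 0.248 to 0.343 CPM. HDAC1-E63R untreated replicate 3 stood apart from both other libraries of its group, with a chi-square per degree of freedom of 60.4 and 67.1 where the other replicate pairs of the series had 3.38 to 7.42. For the 10 genes, values without it are given beside the main results that rest on it, and for the other lists only where stated. Total Hdac1 transcript does not separate the endogenous gene from a construct, and it changed by -0.24, 0.22 and 0.14 on the log2 scale after OHT in the HDAC1-WT, HDAC1-E63R and HDAC1-Y48E lines, so these totals do not check the labels. Hdac2, for which no construct was added, changed by -0.66 ± 0.11 (edgeR adjusted p = 0.0125) in the HDAC1-WT line, -0.21 ± 0.11 in HDAC1-E63R and -0.07 ± 0.11 in HDAC1-Y48E, from means of 195, 177 and 151 CPM to 123, 153 and 144 CPM. It was thus not called in any line, and whole-gene counts can still hold reads from a transcript that has lost part of its exons, so Hdac2 does not check the labels either. The pluripotency factor Pou5f1, an ESC marker, was well above the floor in every group, with means from 371 CPM in OHT-treated HDAC1-Y48E cells to 1253 CPM in untreated HDAC1-WT cells.

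The stretches before the RefSeq start sites of Acta1, Actc1 and Myl9 are shown because these genes were called higher after OHT in both mutant lines and each holds a CArG box, given in capitals. RefSeq held a promoter for 8 of the 10 genes, and these were the 3 of 8 with a CArG box in the 250 bases before the start site. The box is found before 482 of all 32851 promoters listed (1.47%). Each stretch starts 250 bases before the start site and stops before the first exon that GENCODE M21 places there, and a palindromic box needs no search of the other strand. The first base of the box is 73 bases before the start site in Acta1 (position -73), at -47 in Actc1 and at -161 in Myl9.
Acta1, GRCm38.p6 chr8:123894776-123895025, minus strand: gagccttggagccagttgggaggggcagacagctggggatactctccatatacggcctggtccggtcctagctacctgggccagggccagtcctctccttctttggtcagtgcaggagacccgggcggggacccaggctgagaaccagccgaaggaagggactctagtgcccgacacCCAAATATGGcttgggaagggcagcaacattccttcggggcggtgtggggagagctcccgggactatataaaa
Actc1, GRCm38.p6 chr2:114052888-114053125, minus strand: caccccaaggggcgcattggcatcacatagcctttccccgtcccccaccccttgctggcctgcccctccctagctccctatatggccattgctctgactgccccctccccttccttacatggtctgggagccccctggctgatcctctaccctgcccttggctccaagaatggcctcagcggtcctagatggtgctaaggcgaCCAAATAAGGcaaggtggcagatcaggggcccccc
Myl9, GRCm38.p6 chr2:156775214-156775419, plus strand: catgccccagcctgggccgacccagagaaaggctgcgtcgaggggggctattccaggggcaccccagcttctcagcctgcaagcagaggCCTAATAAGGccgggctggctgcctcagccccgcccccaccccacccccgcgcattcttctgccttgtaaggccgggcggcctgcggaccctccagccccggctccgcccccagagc
A match of letters is a description and does not show binding, and no match in Acta2, Cnn1, Tpm1, Tpm2 or Des says only that the letters are not in this window.

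After OHT, Acta1, Actc1 and Myl9 were higher in both mutant lines, and Tagln and Cnn1 were also higher in the HDAC1-Y48E line. None of the 9 genes tested was called in the HDAC1-WT line, where edgeR called 0.0532% of all genes in either direction, DESeq2 called 0 of the 9 and 1 of the 9 had an unadjusted p under 0.05. Of all genes, 9.86% had such a p there by edgeR. In the HDAC1-E63R line 3 genes were called higher and 0 lower, where 4.74% of all genes were higher and 1.18% lower. In the HDAC1-Y48E line 5 genes were called higher and 0 lower, where 10.8% of all genes were higher and 5.84% lower. Acta2, the main actin of vascular smooth muscle, was not among them in either line. Actc1 was above the count filter only in the groups where it was high, so its place among the tested genes depends on its change. Acta1 and Acta2 passed the filter only through the mutant lines, so their place depends on their higher levels there. These are bulk libraries, in which fewer cells of a type and less RNA per cell cannot be told apart, and the same holds for more.

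**Figure D1:**
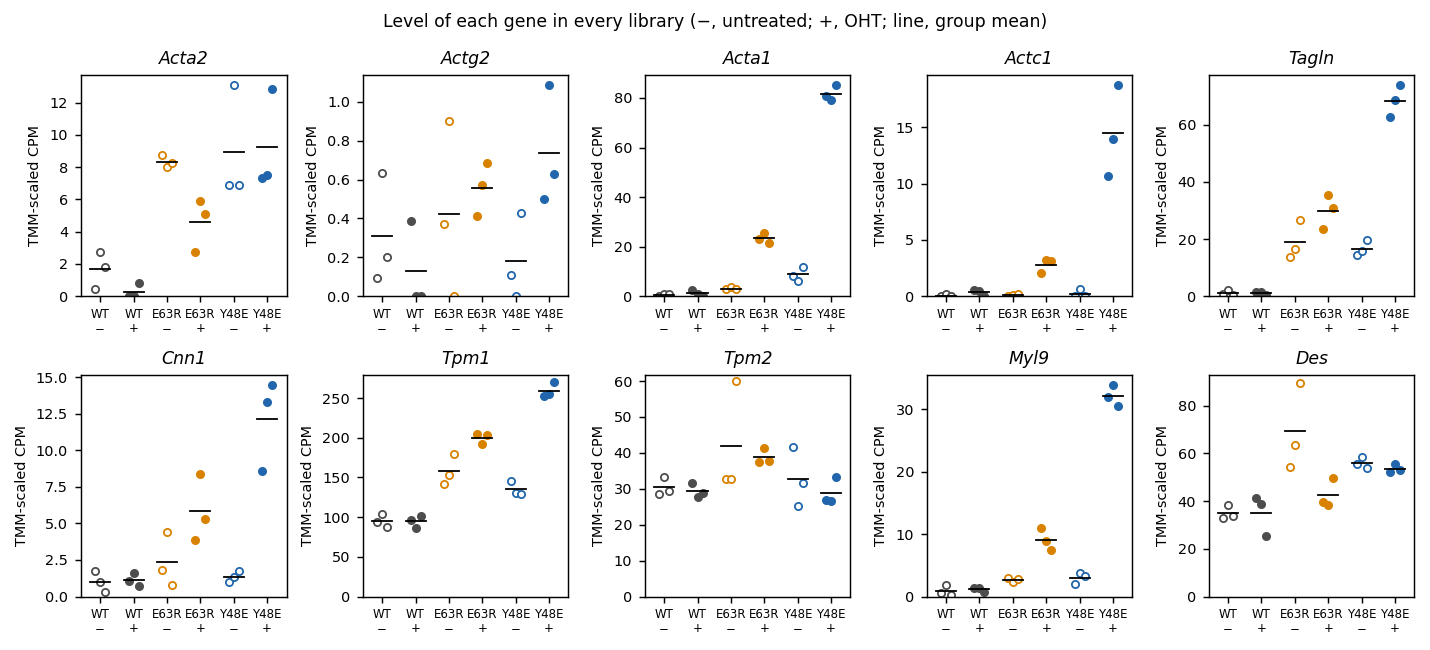
Level of each of the 10 genes (TMM-scaled CPM, linear axis from 0) in every library of the 3 rescue lines, untreated (open) and after OHT (filled), with a line at the group mean. Acta1, Actc1, Tagln, Cnn1, Myl9 and Tpm1 have their highest levels in the 3 OHT-treated HDAC1-Y48E libraries, whereas Acta2, Tpm2, Des and Actg2 do not show this separation.

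Acta1 (chr8:123891769-123894751 in mm10, minus strand), the skeletal muscle actin, changed most in absolute level among the muscle actins. Untreated HDAC1-WT libraries had 0.0929, 0.815 and 0.899 CPM, and the OHT-treated ones had 2.50, 0.815 and 0.176 CPM. HDAC1-E63R libraries had 2.77, 3.61 and 2.74 CPM untreated and 23.2, 25.7 and 21.6 CPM after OHT. Values in HDAC1-Y48E cells were 8.35, 6.14 and 11.8 CPM untreated and 80.7, 79.2 and 85.2 CPM after OHT. In both mutant lines every OHT-treated library was above every untreated one, and the HDAC1-WT groups overlapped. The log2 change by edgeR was 2.95 ± 0.35 in the HDAC1-E63R line (adjusted p = 3.27e-06), 3.22 ± 0.32 in the HDAC1-Y48E line (adjusted p = 5.06e-08) and 0.91 ± 0.62 in the HDAC1-WT line (adjusted p = 0.70). Without HDAC1-E63R untreated replicate 3 the change in that line was 2.89 ± 0.31.

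Actc1 (chr2:114047282-114053548, minus strand), the cardiac actin, was almost undetected in untreated cells. Its counts were 0, 2 and 0 in untreated HDAC1-WT, 0, 1 and 2 in untreated HDAC1-E63R and 0, 6 and 0 in untreated HDAC1-Y48E libraries. After OHT they were 6, 5 and 0 in HDAC1-WT, 25, 34 and 32 in HDAC1-E63R and 107, 154 and 209 in HDAC1-Y48E libraries. Only the OHT-treated mutant libraries stood clear of the floor, at 2.07, 3.23 and 3.13 CPM in HDAC1-E63R and 10.7, 13.9 and 18.8 CPM in HDAC1-Y48E. Over the pooled counts the ratio of OHT to untreated was 26.3 in the HDAC1-E63R line (95% exact interval 8.71 to 129.7) and 66.2 in the HDAC1-Y48E line (30.2 to 181), against 5.34 in the HDAC1-WT line (1.17 to 49.6), and the intervals cover counting error only. By edgeR, the log2 changes were 4.57 ± 0.93 (adjusted p = 0.00104) in HDAC1-E63R, 5.95 ± 0.81 (adjusted p = 3.94e-06) in HDAC1-Y48E and 2.23 ± 1.26 (adjusted p = 0.605) in HDAC1-WT. The change was not shown to differ from that in HDAC1-WT, with a difference of 2.34 ± 2.14 for HDAC1-E63R (edgeR adjusted p = 0.594) and 3.73 ± 2.18 for HDAC1-Y48E (adjusted p = 0.24). The HDAC1-E63R call was narrowly lost when only the libraries compared were fitted, at a log2 change of 4.56. Without HDAC1-E63R untreated replicate 3 it was 5.48 ± 1.05 and was called (edgeR adjusted p = 6.42e-05).

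Acta2 (chr19:34241090-34255590, minus strand), the smooth muscle α-actin, was higher in both mutant lines than in HDAC1-WT and was not called with OHT. It was 0.465, 2.72 and 1.80 CPM in untreated HDAC1-WT and 0, 0 and 0.794 CPM in OHT-treated HDAC1-WT libraries. Values in HDAC1-E63R cells were 8.77, 8.01 and 8.23 CPM untreated and 2.73, 5.90 and 5.08 CPM after OHT. For HDAC1-Y48E, the untreated libraries had 6.92, 13.1 and 6.88 CPM and the OHT-treated ones 7.31, 7.51 and 12.8 CPM. All 12 mutant libraries were above the highest HDAC1-WT library, OHT-treated HDAC1-E63R replicate 1 only just, and the 2 HDAC1-Y48E groups overlapped almost fully. In the HDAC1-E63R line the OHT-treated libraries were all below the untreated ones. The edgeR log2 change with OHT was -0.87 ± 0.50 in the HDAC1-E63R line (adjusted p = 0.218), 0.05 ± 0.49 in the HDAC1-Y48E line (adjusted p = 0.951) and -2.55 ± 0.78 in the HDAC1-WT line (adjusted p = 0.198). The HDAC1-E63R value was -0.89 ± 0.45 without the library that stood apart. The HDAC1-WT value rests on few counts, with 5, 30 and 18 untreated and 0, 0 and 9 after OHT. It passed the test when no filter on low counts was applied (edgeR adjusted p = 0.00297), and it ranged from -7.10 to -1.99 when each library was left out in turn, with no such fit calling it.

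Actg2 (chr6:83512905-83536265, minus strand), the enteric smooth muscle actin, was near the floor throughout. Its count was 0 to 8 in every library except OHT-treated HDAC1-Y48E replicate 2, which had 12, and the highest level was 1.09 CPM. It did not pass the filter on low counts. Without that filter, among 32028 genes, edgeR gave a log2 change with OHT of 1.95 ± 1.45 in the HDAC1-Y48E line (adjusted p = 0.358), so a change was not detectable at this depth.

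Per kilobase of exon, which allows genes to be compared, the 4 muscle actins summed to 0.332 to 2.29 CPM per kb in untreated HDAC1-WT libraries and 0.476 to 2.23 in OHT-treated ones. The sum was 5.67 to 6.65 in untreated and 17.9 to 21.8 in OHT-treated HDAC1-E63R libraries, and 8.66 to 11.1 in untreated and 62.8 to 73.3 in OHT-treated HDAC1-Y48E libraries. The make-up of the sum differed between states. Acta2 gave 62.4% ± 6.5 (SD, n = 3) of it in untreated HDAC1-E63R cells and 10.5% ± 3.1 after OHT, whereas Acta1 gave 32.2% ± 2.8 and 78.8% ± 5.0. Over the 3 untreated libraries of that line, the one that stood apart included, the share of Acta2 was 54.9% to 66.2% and that of Acta1 29.9% to 35.4%. In the HDAC1-Y48E line Acta2 gave 40.7% ± 15.1 untreated and 6.20% ± 1.5 after OHT, and Acta1 gave 56.9% ± 16.2 and 79.8% ± 4.0. Actc1 reached 8.87% ± 1.6 in OHT-treated HDAC1-E63R and 13.3% ± 2.6 in OHT-treated HDAC1-Y48E cells. The shares in the HDAC1-WT line rest on 7 to 48 counts a library and are not compared. The muscle actins remained a small part of all actin transcript. Of the per-length sum of all 6 actins, with the cytoplasmic Actb and Actg1, they made up 0.334% ± 0.23 in untreated HDAC1-WT and 0.247% ± 0.20 in OHT-treated HDAC1-WT cells. Their share was 1.25% ± 0.27 in untreated and 2.71% ± 0.22 in OHT-treated HDAC1-E63R cells and 2.40% ± 0.44 and 7.15% ± 0.59 in HDAC1-Y48E cells. The transcripts of the muscle actins share 82.6% to 86.3% of aligned bases with each other, and no window of 150 bases of any of the 10 genes was identical to another gene.

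**Figure D2:**
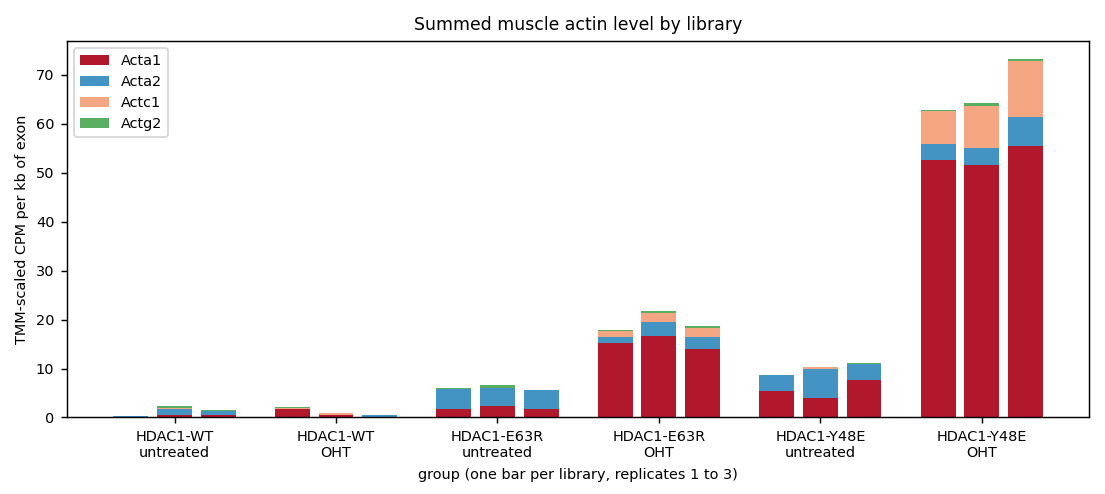
Summed level of the 4 muscle actins (TMM-scaled CPM per kb of exon, linear axis from 0) in every library, with 1 stacked bar per library and the part of each actin in colour. The bars reach 62.8 to 73.3 in the OHT-treated HDAC1-Y48E libraries and are mostly Acta1, whereas Acta2 gives the larger part in the untreated HDAC1-E63R libraries.

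Tagln (chr9:45929619-45936058, minus strand) encodes transgelin, an actin-bundling protein that is an early marker of the smooth muscle lineage. It was 0.650, 2.17 and 0.300 CPM in untreated and 1.35, 1.45 and 0.529 CPM in OHT-treated HDAC1-WT libraries. For HDAC1-E63R, the untreated libraries had 13.8, 16.4 and 26.7 CPM and the OHT-treated ones 23.5, 35.5 and 30.9 CPM. HDAC1-Y48E libraries had 14.4, 15.7 and 19.7 CPM untreated and 62.7, 68.5 and 73.9 CPM after OHT. Every mutant library, untreated or treated, was above every HDAC1-WT library, and the highest levels were in OHT-treated HDAC1-Y48E. Fitted by edgeR, the log2 change with OHT was 2.04 ± 0.28 in the HDAC1-Y48E line (adjusted p = 4.25e-06), 0.66 ± 0.28 in the HDAC1-E63R line (adjusted p = 0.083) and 0.05 ± 0.53 in the HDAC1-WT line. Untreated replicate 3, the library that stood apart, had the highest untreated HDAC1-E63R value, and without it the change in that line was 0.99 ± 0.23 (edgeR adjusted p = 0.00063), which still missed the fold limit. An antisense gene, Gm48529, overlaps 62.4% of the Tagln exon bases, and its levels were close to those of Tagln in the mutant lines, with means of 18.4 CPM in untreated and 29.7 CPM in OHT-treated HDAC1-E63R and 16.3 and 69.7 CPM in HDAC1-Y48E cells. The use of strand in counting is not given in the sources used here, and without strand the reads of Tagln and Gm48529 cannot be told apart.

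Cnn1 (chr9:22099216-22109630, plus strand) encodes calponin 1, which binds actin and slows myosin in differentiated smooth muscle. It was 1.77, 0.996 and 0.300 CPM in untreated and 1.06, 1.63 and 0.706 CPM in OHT-treated HDAC1-WT libraries. HDAC1-E63R libraries had 1.85, 4.40 and 0.800 CPM untreated and 3.88, 8.37 and 5.27 CPM after OHT. Values in HDAC1-Y48E cells were 0.989, 1.36 and 1.72 CPM untreated and 8.61, 13.3 and 14.5 CPM after OHT. The HDAC1-Y48E groups did not overlap, and those of HDAC1-E63R did, through untreated replicate 2. By edgeR, the log2 change was 3.15 ± 0.54 in the HDAC1-Y48E line (adjusted p = 6.47e-05) and 1.31 ± 0.51 in the HDAC1-E63R line (adjusted p = 0.0616), against 0.13 ± 0.60 in HDAC1-WT. Without HDAC1-E63R untreated replicate 2 the latter was 2.103 ± 0.55 and was called (edgeR adjusted p = 0.00645), and without replicate 3 it was 0.91 ± 0.46 and was not.

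Myl9 (chr2:156775420-156781658, plus strand) encodes the regulatory light chain of smooth muscle myosin, whose phosphorylation starts contraction. It was 0.557, 1.81 and 0.200 CPM in untreated and 1.44, 1.36 and 0.706 CPM in OHT-treated HDAC1-WT libraries. Values in HDAC1-E63R cells were 2.95, 2.26 and 2.74 CPM untreated and 10.9, 8.94 and 7.52 CPM after OHT. For HDAC1-Y48E, the untreated libraries had 1.98, 3.75 and 3.23 CPM and the OHT-treated ones 31.9, 33.8 and 30.5 CPM. Neither mutant line had an overlap between its untreated and treated libraries. The log2 change by edgeR was 1.78 ± 0.36 in the HDAC1-E63R line (adjusted p = 0.000937), 3.42 ± 0.36 in the HDAC1-Y48E line (adjusted p = 1.02e-07) and 0.41 ± 0.49 in the HDAC1-WT line (adjusted p = 0.874). The HDAC1-E63R change was 1.80 ± 0.36 without the library that stood apart.

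Tpm1 (chr9:67022590-67049406, minus strand), a tropomyosin made in muscle and non-muscle forms, was well expressed in every group. It was 94.5, 104 and 87.9 CPM in untreated and 96.2, 86.7 and 102 CPM in OHT-treated HDAC1-WT libraries. For HDAC1-E63R, the untreated libraries had 142, 153 and 179 CPM and the OHT-treated ones 204, 192 and 204 CPM. HDAC1-Y48E libraries had 146, 130.4 and 129.5 CPM untreated and 252, 255 and 270.1 CPM after OHT. All 6 HDAC1-WT libraries were below all untreated mutant libraries, and the OHT-treated HDAC1-Y48E libraries were the highest. The edgeR log2 change was 0.94 ± 0.10 in the HDAC1-Y48E line (adjusted p = 2.37e-07), which is under the fold limit, and 0.34 ± 0.10 in the HDAC1-E63R line (adjusted p = 0.0182). Without the library that stood apart the HDAC1-E63R change was 0.44 ± 0.08 (edgeR adjusted p = 4.73e-05).

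Tpm2 (chr4:43514711-43523765, minus strand), another tropomyosin, lay between 25.1 and 41.6 CPM in 17 of the 18 libraries and at 60.0 CPM in HDAC1-E63R untreated replicate 3. Its log2 change with OHT by edgeR was -0.05 ± 0.20, -0.11 ± 0.20 and -0.18 ± 0.20 in the HDAC1-WT, HDAC1-E63R and HDAC1-Y48E lines, with adjusted p from 0.488 to 0.971. Without the library that stood apart the HDAC1-E63R value turned to 0.24 ± 0.16 and was not called.

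Des (chr1:75360329-75368579, plus strand) encodes desmin, the intermediate filament of muscle cells. It was 33.0, 38.6 and 33.8 CPM in untreated and 41.2, 38.6 and 25.2 CPM in OHT-treated HDAC1-WT libraries. HDAC1-E63R libraries had 54.5, 63.5 and 89.7 CPM untreated and 39.8, 38.2 and 49.7 CPM after OHT. Values in HDAC1-Y48E cells were 55.5, 58.6 and 53.9 CPM untreated and 52.1, 55.6 and 52.9 CPM after OHT. In the HDAC1-E63R line every treated library was below every untreated one, the opposite order to Acta1, Actc1 and Myl9. The edgeR log2 change there was -0.70 ± 0.17 (adjusted p = 0.00485), under the fold limit, and -0.47 ± 0.14 without the library that stood apart (adjusted p = 0.00877). In the HDAC1-Y48E and HDAC1-WT lines it was -0.06 ± 0.17 and -0.01 ± 0.18.

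**Figure D3:**
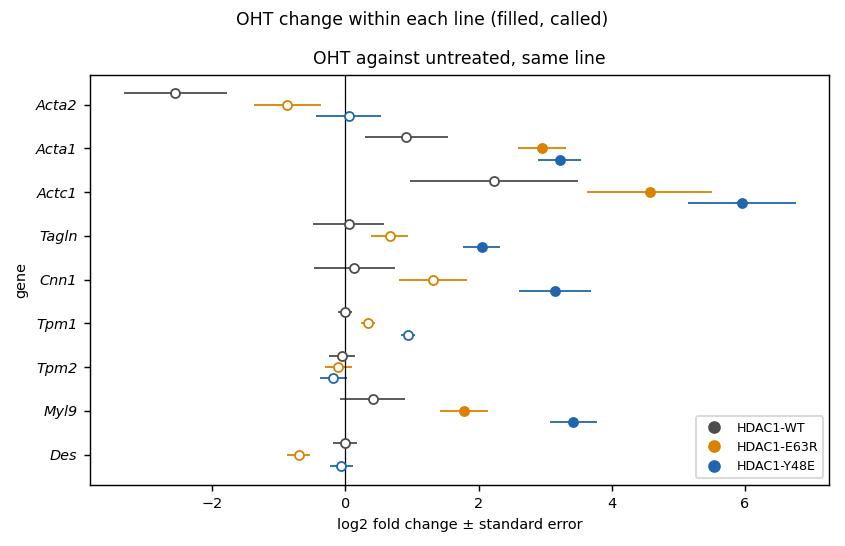
edgeR log2 fold change after OHT, with its approximate standard error as a bar, for the 9 tested genes in the HDAC1-WT, HDAC1-E63R and HDAC1-Y48E lines (Actg2 was not tested). Filled points were called, and these are Acta1, Actc1 and Myl9 in both mutant lines and Tagln and Cnn1 in HDAC1-Y48E.

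Whether OHT acted differently in a mutant line than in the HDAC1-WT line was tested as a difference of the changes. For HDAC1-Y48E against HDAC1-WT, Cnn1 and Myl9 differed, so 2 of the 9 genes were called higher, where 4.65% of all genes were. By edgeR, the difference was 3.01 ± 0.81 for Cnn1 (adjusted p = 0.00956) and 3.01 ± 0.62 for Myl9 (adjusted p = 0.00113). The Cnn1 call was lost in 10 of 12 fits that left out 1 library, the exceptions being those without HDAC1-WT untreated replicate 3 and HDAC1-WT OHT replicate 2, with values from 2.38 to 3.42 and an adjusted p of up to 0.0684. The Myl9 call was lost without HDAC1-WT untreated replicate 2, where the difference was 1.84 ± 0.68 (edgeR adjusted p = 0.0634). Tpm1 differed by 0.95 ± 0.15 (edgeR adjusted p = 6.44e-05), under the fold limit. The differences for Tagln, 1.99 ± 0.61 (edgeR adjusted p = 0.0219), and Acta1, 2.30 ± 0.76 (adjusted p = 0.0318), were not called here and were called by DESeq2. Acta1 was also called without HDAC1-WT untreated replicate 1 (2.81 ± 0.73) or OHT replicate 1 (3.49 ± 0.71), and Tagln without HDAC1-WT untreated replicate 3 (2.39 ± 0.58). Acta2, at 2.60 ± 0.93 (edgeR adjusted p = 0.047), was called at 7.14 ± 1.504 without HDAC1-WT OHT replicate 3, the only library of that group with an Acta2 count. Tpm1 just passed the fold limit without HDAC1-WT OHT replicate 3 or HDAC1-Y48E untreated replicate 1 (1.01 ± 0.16).

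For HDAC1-E63R against HDAC1-WT the difference in OHT change was called for 0 of the 9 genes by edgeR and 0 by DESeq2, where edgeR called 1.68% of all genes in either direction, and 4 of the 9 had an unadjusted p under 0.05. Of all genes, 20.4% had such a p by edgeR. Acta1 differed there by 2.04 ± 0.77 (edgeR adjusted p = 0.128). For HDAC1-Y48E against HDAC1-E63R the count was also 0 by edgeR and 0 by DESeq2, where 1.31% of all genes were called in either direction, and 5 of the 9 had an unadjusted p under 0.05. The share of all genes with such a p by edgeR was 18.8%. There Tagln differed by 1.38 ± 0.39 (edgeR adjusted p = 0.0407), Tpm1 by 0.60 ± 0.15 (adjusted p = 0.0178), Myl9 by 1.65 ± 0.50 (adjusted p = 0.0588) and Acta1 by 0.27 ± 0.48 (adjusted p = 0.838). Both counts were again 0 of 9 without HDAC1-E63R untreated replicate 3, whereas Gm48529, the antisense gene of Tagln, was then called in both comparisons (1.44 ± 0.38 and 1.04 ± 0.25). The differences against HDAC1-WT were then 1.98 ± 0.68 for Acta1 (edgeR adjusted p = 0.0488) and 0.45 ± 0.11 for Tpm1 (adjusted p = 0.0045), the latter under the fold limit. Those of HDAC1-Y48E against HDAC1-E63R were then 1.05 ± 0.29 for Tagln (edgeR adjusted p = 0.0114), 0.49 ± 0.11 for Tpm1 (adjusted p = 0.00122), 1.62 ± 0.48 for Myl9 (adjusted p = 0.0164) and 2.23 ± 0.63 for Cnn1 (adjusted p = 0.0126). For Acta1, this leaves the OHT changes of the mutant lines neither shown to differ nor shown to be equal.

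Before OHT, the mutant lines already had more Tagln, Acta1 and Acta2 than the HDAC1-WT line. In untreated HDAC1-E63R against untreated HDAC1-WT cells, 3 of the 9 genes were called higher, where 3.32% of all genes were. Acta1 and Acta2 passed the count filter only through the mutant lines, so this count depends in part on their difference from HDAC1-WT. By edgeR, the log2 difference was 4.14 ± 0.39 for Tagln (adjusted p = 5.84e-08), 2.32 ± 0.54 for Acta1 (adjusted p = 0.00247) and 2.32 ± 0.55 for Acta2 (adjusted p = 0.00298). Tpm1 (0.73 ± 0.10, edgeR adjusted p = 1.92e-05) and Des (0.98 ± 0.17, adjusted p = 0.000204) passed the p limit alone. Myl9 was just short of it (1.60 ± 0.45, edgeR adjusted p = 0.0103). Without HDAC1-E63R untreated replicate 3, Tagln was 3.81 ± 0.31, Acta1 2.39 ± 0.49 and Acta2 2.33 ± 0.49, and Myl9 was called too (1.58 ± 0.45, edgeR adjusted p = 0.00569). The Acta1 call was lost without HDAC1-WT untreated replicate 1 (1.81 ± 0.53, edgeR adjusted p = 0.0186). The Acta2 call was lost without HDAC1-WT untreated replicate 1 (1.87 ± 0.56, edgeR adjusted p = 0.0199) or 3 (2.39 ± 0.65, adjusted p = 0.0114). Without HDAC1-WT untreated replicate 2, Myl9 was called at 2.77 ± 0.48 and Des at 1.06 ± 0.20. Des was also called without HDAC1-E63R untreated replicate 1 (1.12 ± 0.18) or 2 (1.03 ± 0.19), and Myl9 without HDAC1-E63R untreated replicate 2 (1.70 ± 0.48). With only the libraries compared, Tagln alone was called.

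In untreated HDAC1-Y48E against untreated HDAC1-WT cells, which share the HDAC1-WT libraries with the comparison above, 4 of the 9 genes were called higher, where 2.62% of all genes were. Here too Acta1 and Acta2 were tested only through their levels in the mutant lines. By edgeR, the log2 difference was 3.95 ± 0.39 for Tagln (adjusted p = 1.79e-07), 3.85 ± 0.47 for Acta1 (adjusted p = 3.44e-06), 2.42 ± 0.55 for Acta2 (adjusted p = 0.00269) and 1.76 ± 0.44 for Myl9 (adjusted p = 0.00625). Tpm1 (0.50 ± 0.10) and Des (0.67 ± 0.17) passed the p limit alone, and Cnn1 had 0.40 ± 0.60. The Acta2 call was lost without HDAC1-WT untreated replicate 1 (1.98 ± 0.56) or 3 (2.48 ± 0.65) or HDAC1-Y48E untreated replicate 2 (2.05 ± 0.59). The Myl9 call was lost without HDAC1-WT untreated replicate 1 (1.52 ± 0.49) or 3 (1.32 ± 0.42) or HDAC1-Y48E untreated replicate 2 (1.57 ± 0.49) or 3 (1.70 ± 0.50). Between the untreated mutant lines 0 of the 9 genes were called by edgeR and 1, Acta1, by DESeq2, where edgeR called 0.974% of all genes in either direction, and 2 of the 9 had an unadjusted p under 0.05. The share of all genes with such a p by edgeR was 18.4%. Acta1 was 1.53 ± 0.37 higher in HDAC1-Y48E (edgeR adjusted p = 0.0189), and it was called without HDAC1-E63R untreated replicate 3 (1.47 ± 0.33, adjusted p = 0.00209). Hdac1 transcript, endogenous and construct together, had means of 105 and 101 CPM in the untreated HDAC1-E63R and HDAC1-Y48E lines against 205 CPM in untreated HDAC1-WT. After OHT its means were 122 and 111 CPM against 173 CPM. The part of the Hdac1 level in the differences between lines, untreated or treated, was not tested.

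After OHT, 7 of the 9 genes were higher in each mutant line than in the HDAC1-WT line, and Tpm2 and Des were not called in either. The mutation and the line cannot be told apart here either, and part of the gap was present before OHT. Untreated, the log2 differences in HDAC1-E63R and HDAC1-Y48E were 4.14 and 3.95 for Tagln and 2.32 and 2.42 for Acta2. In HDAC1-E63R against HDAC1-WT 5.93% of all genes were called higher, and in HDAC1-Y48E against HDAC1-WT, with the same HDAC1-WT libraries, 11% were. Acta1, Acta2 and Actc1 passed the count filter only through the mutant lines, so both counts of 7 depend in part on their differences. The log2 differences in HDAC1-E63R and HDAC1-Y48E, in this order, were 4.35 ± 0.40 and 6.15 ± 0.40 for Acta1, 4.75 ± 0.38 and 5.94 ± 0.38 for Tagln and 4.00 ± 0.72 and 5.02 ± 0.70 for Acta2. They were 3.01 ± 0.76 and 5.37 ± 0.75 for Actc1, 2.96 ± 0.39 and 4.77 ± 0.39 for Myl9, 2.36 ± 0.54 and 3.41 ± 0.54 for Cnn1 and 1.08 ± 0.10 and 1.45 ± 0.11 for Tpm1. The edgeR adjusted p was at most 0.00433 in HDAC1-E63R and at most 2.36e-05 in HDAC1-Y48E. The actin differences lean on HDAC1-WT libraries with few counts, and Acta2 was at 0 in 2 of the 3 OHT-treated HDAC1-WT libraries. In HDAC1-E63R the Actc1 call was lost without HDAC1-WT OHT replicate 2 (3.27 ± 0.92) or 3 (2.42 ± 0.75) or HDAC1-E63R OHT replicate 2 (2.89 ± 0.83) or 3 (2.92 ± 0.83). The Cnn1 call was lost there without HDAC1-WT OHT replicate 1 (2.31 ± 0.63) or 3 (2.104 ± 0.61) or HDAC1-E63R OHT replicate 2 (2.01 ± 0.58).

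**Figure D4:**
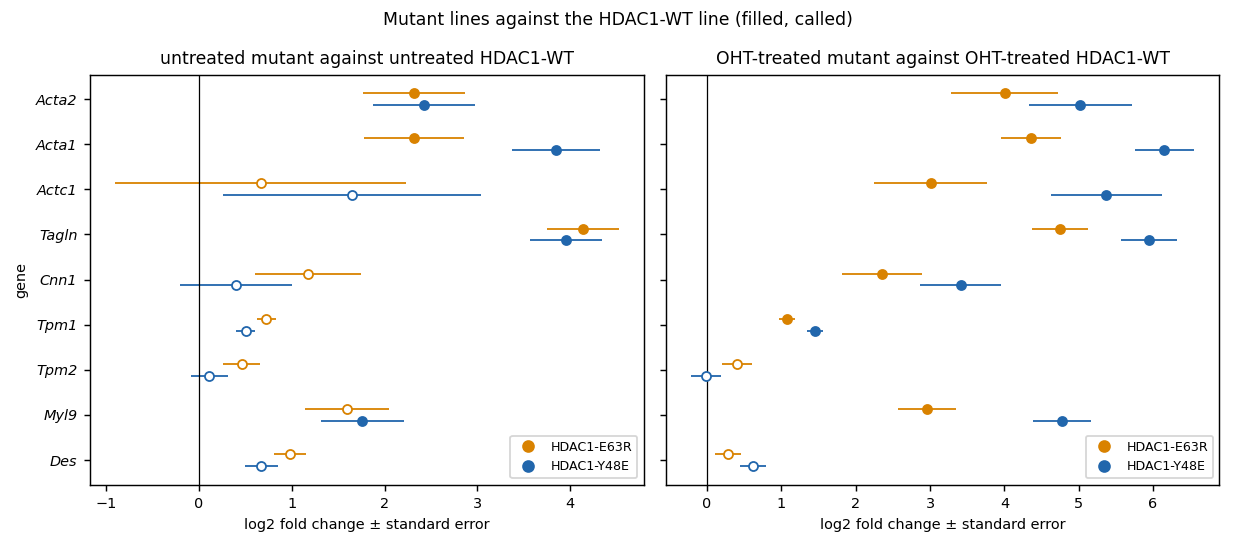
edgeR log2 fold change of each mutant line against the HDAC1-WT line, with its approximate standard error as a bar, for the 9 tested genes, untreated (left) and after OHT (right). Filled points were called, 3 and 4 of them untreated and 7 and 7 after OHT in HDAC1-E63R and HDAC1-Y48E.

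Between the OHT-treated mutants, Acta1, Actc1, Tagln and Myl9 were higher in HDAC1-Y48E, 4 of the 9 genes where 2.37% of all genes were called higher. The log2 differences by edgeR were 1.80 ± 0.29 for Acta1 (adjusted p = 0.00013), 1.81 ± 0.32 for Myl9 (adjusted p = 0.0003), 1.19 ± 0.27 for Tagln (adjusted p = 0.00291) and 2.37 ± 0.60 for Actc1 (adjusted p = 0.00736). The calls of Acta1 and Myl9 held in all 6 fits that left out 1 library. That of Actc1 was lost in 6 of 6, with values from 2.13 to 2.54 and an adjusted p from 0.0177 to 0.0689, and that of Tagln in 4 of 6, without HDAC1-E63R OHT replicate 1 or 3 or HDAC1-Y48E OHT replicate 2 or 3, with values from 1.04 to 1.21. Acta2 (1.02 ± 0.50, edgeR adjusted p = 0.171) and Cnn1 (1.06 ± 0.47, adjusted p = 0.129) were called only when the fit held these libraries alone. For Tagln, the untreated mutants were not separated by the test (-0.19 ± 0.28 for HDAC1-Y48E against HDAC1-E63R, edgeR adjusted p = 0.783).

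Other genes of contractile and actin-regulated programmes were read from lists, and each count below stands against the 4.74% of all genes called higher with OHT in HDAC1-E63R and the 10.8% in HDAC1-Y48E. Of 12 further smooth muscle contractile genes, 0 were called in HDAC1-WT by edgeR or DESeq2, 1 was higher in HDAC1-E63R and 2 in HDAC1-Y48E, and the median log2 changes were 0.07, 0.88 and 0.87 where the median of all genes was 0, 0.03 and 0.05. Calls of 1 and 2 of 12 are near the shares of all genes. Mylk, the kinase that phosphorylates Myl9, rose by 4.23 ± 0.79 in both mutant lines, from means of 0.215 and 0.257 CPM to 4.69 and 5.03 CPM in HDAC1-E63R and HDAC1-Y48E. Both untreated means were at or under the limit of 3 counts, so the size of the rise is imprecise, and Mylk had 1.47 CPM in untreated and 2.00 CPM in OHT-treated HDAC1-WT cells. Myh11, the smooth muscle myosin heavy chain and a defining marker of that cell type, was called in HDAC1-Y48E (4.09 ± 1.13), with a mean of 2.69 ± 1.4 CPM (SD, n = 3), and not in HDAC1-E63R (3.25 ± 1.04, edgeR adjusted p = 0.0252), with 2.61 ± 0.66 CPM. Myh11 passed the count filter only through OHT-treated mutant libraries, so its place among the tested genes depends on its rise. The other defining markers, Smtn and Lmod1, had log2 changes of 0.83 ± 0.14 and 0.98 ± 0.63 in HDAC1-E63R and 0.69 ± 0.14 and 1.16 ± 0.62 in HDAC1-Y48E and were not called. Their means were 37.5 to 73.3 CPM and 2.14 to 6.15 CPM over the 6 groups, and both were already present in HDAC1-WT cells.

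Of the 7 genes for SRF and its cofactors, none was called in any of the 3 lines by edgeR or DESeq2, and 1, 5 and 5 of them had an unadjusted p under 0.05 in the HDAC1-WT, HDAC1-E63R and HDAC1-Y48E lines. Of all genes, 9.86%, 36.6% and 51% had such a p by edgeR in these lines. Srf itself changed by 0.79 ± 0.11 in HDAC1-E63R (edgeR adjusted p = 1.40e-05) and 0.71 ± 0.11 in HDAC1-Y48E (adjusted p = 1.16e-05), under the fold limit. Myocd, the cofactor restricted to muscle, had means of 0.0302 CPM in untreated HDAC1-WT cells, 0 after OHT, 0.0376 and 0.866 CPM in HDAC1-E63R and 0.114 and 0.917 CPM in HDAC1-Y48E cells. It was not called with OHT (edgeR adjusted p = 0.0312 in HDAC1-E63R and 0.0571 in HDAC1-Y48E). It was the 1 gene of the 7 called higher in OHT-treated HDAC1-E63R and in OHT-treated HDAC1-Y48E than in OHT-treated HDAC1-WT cells (edgeR adjusted p = 0.00713 and 0.00413), against a group with no count of it. Myocd passed the count filter only through OHT-treated mutant libraries, so these calls depend in part on its higher levels there. Of 21 non-muscle actin cytoskeleton genes, 4 were higher in HDAC1-E63R and 6 in HDAC1-Y48E, with medians of 0.24 and 0.41, and without HDAC1-E63R untreated replicate 3 the former were 3 genes and 0.41. The 4 genes called in HDAC1-E63R were among the 6 in HDAC1-Y48E, with Ankrd1 at 1.85 and 5.27, Fhl2 at 2.86 and 4.59, Ctgf at 1.72 and 2.79 and Cyr61 at 1.35 and 2.49 in HDAC1-E63R and HDAC1-Y48E. Ctgf and Cyr61 encode secreted proteins of the matrix, not parts of the cytoskeleton, and Ankrd1 and Fhl2 encode proteins that also act as transcriptional cofactors. Ankrd1, Ctgf and Cyr61 are also known as targets of the YAP cofactor. Actg1, a cytoplasmic actin, was higher in HDAC1-Y48E by 1.35 ± 0.09 and Zyx, which encodes zyxin of focal adhesions, by 1.09 ± 0.16, and Actb changed by 0.86 ± 0.11, under the fold limit. Of 6 tested immediate early genes of SRF, 2 were higher in each mutant line, and they were Egr1 (3.19) and Fos (1.22) in HDAC1-E63R and Egr2 (4.61) and Junb (1.08) in HDAC1-Y48E, with list medians of 1.69 and 0.98. In HDAC1-Y48E, Egr2 had means of 0.0379 CPM untreated, under the limit of 3 counts, and 1.18 CPM after OHT. The size of its rise is thus imprecise, and Egr2 had 0.519 and 0.0882 CPM in HDAC1-WT. Egr1 had a mean of 5.37 CPM in untreated and 49.3 CPM in OHT-treated HDAC1-E63R cells, against 49.4 and 74.5 CPM in HDAC1-WT. Fos had 13.5 and 31.3 CPM there, against 93.0 and 108 CPM in HDAC1-WT. Of the 6 genes, 1 was called higher and 3 lower in untreated HDAC1-E63R than in untreated HDAC1-WT cells, and 0 higher and 1 lower, Fos, after OHT.

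Of 22 tested sarcomere genes of striated muscle, 4 were higher in HDAC1-E63R and 9 in HDAC1-Y48E and none lower, and 18 and 13 were not called, with medians of 0.50 and 0.87. Their summed level was 122 to 140.4 CPM in untreated and 123 to 125 CPM in OHT-treated HDAC1-WT, 105 to 138 and 132 to 145 CPM in HDAC1-E63R, and 117 to 119.7 and 193 to 206 CPM in HDAC1-Y48E libraries. In HDAC1-Y48E, Myl2, the ventricular light chain, rose by 4.92 to a mean of 18.1 CPM and Myh7, the slow myosin heavy chain, by 4.72 to 7.07 CPM. The troponin genes Tnnt3 and Tnni2 rose by 4.52 and 4.01 there and by 4.01 and 4.79 in HDAC1-E63R, where Myl2 and the α-myosin gene Myh6 rose by 2.58 and 1.57. Untreated means of Tnnt3 and Tnni2 were near the floor, at 0.327 and 0.471 CPM in HDAC1-Y48E and 0.384 and 0.0923 CPM in HDAC1-E63R. Both passed the count filter only through OHT-treated mutant libraries, so the counts of calls depend in part on their rise. Of 5 tested muscle transcription factors, none was called with OHT in any line by edgeR or DESeq2, and 1, 0 and 1 had an unadjusted p under 0.05 in the HDAC1-WT, HDAC1-E63R and HDAC1-Y48E lines (9.86%, 36.6% and 51% of all genes). Their medians were 0.35 and -0.04 in the mutant lines, and the myogenic factors Myog and Myf5 were at or below a mean of 0.357 CPM in every group. The part of the striated programme in the changes of the actin genes was not tested.

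Markers of other programmes and cell types were read beside these results. Among genes of TGF-beta signalling, which induces smooth muscle genes in many cells, the ligand gene Tgfb1 rose by 1.28 and 2.13 in HDAC1-E63R and HDAC1-Y48E, and the receptor gene Tgfbr2 by 1.69 in HDAC1-Y48E. Tgfbr2 had means of 3.38 and 10.9 CPM there, against 1.31 and 3.66 CPM in HDAC1-WT, where its mean also rose and it was not called. Smad3 had a lower mean after OHT in HDAC1-Y48E (36.3 and 24.3 CPM) and was not called. Of 6 tested fibroblast markers, Col1a1 (2.49 and 3.07) and Thy1 (1.55 and 1.42) were higher in HDAC1-E63R and HDAC1-Y48E, with list medians of 1.29 and 0.98. Thy1 had means of 11.1 and 32.4 CPM in HDAC1-E63R and 19.3 and 51.6 CPM in HDAC1-Y48E, against 16.6 and 30.6 CPM in HDAC1-WT, where its change was 0.88 ± 0.16 (edgeR adjusted p = 0.0141). Pdgfrb, at 19.2 and 13.4 CPM in HDAC1-E63R and 16.7 and 11.2 CPM in HDAC1-Y48E, and Twist1, at 9.40 and 5.28 CPM and 12.2 and 7.93 CPM, had lower means after OHT and were not called. The fibroblast median of HDAC1-E63R was 0.77, over 7 tested genes, without its untreated replicate 3. The summed level of the 10-gene list, of which 0 to 4 genes were at 0 throughout a group, was 41.0 to 48.6 CPM in untreated and 67.9 to 78.6 CPM in OHT-treated HDAC1-E63R and 55.3 to 56.9 and 105 to 115 CPM in HDAC1-Y48E libraries, against 57.5 to 66.1 and 74.0 to 77.6 CPM in HDAC1-WT. Of 8 tested extraembryonic endoderm markers, Dab2 (1.17) and Col4a1 (1.08) were higher in HDAC1-E63R and Dab2 (1.88) in HDAC1-Y48E, with medians of 0.44 and 0.17. Gata6 had means of 3.10 and 1.503 CPM in HDAC1-E63R, and in HDAC1-Y48E Lama1 had 90.4 and 54.0 CPM and Gata4 7.08 and 5.47 CPM, all lower after OHT and not called. The list sums were 209 to 316 CPM untreated and 358 to 373 CPM after OHT in HDAC1-E63R and 454 to 491 and 491 to 502 CPM in HDAC1-Y48E, against 649 to 664 and 549 to 673 CPM in HDAC1-WT. Without HDAC1-E63R untreated replicate 3, no endoderm marker was called in that line by edgeR. Of 7 tested trophoblast markers, Hand1 (3.34) and Gata3 (2.64) were higher and Ascl2 (-1.31) lower in HDAC1-E63R, and Hand1 (3.27), Gata3 (1.86) and Eomes (1.06) were higher in HDAC1-Y48E, with medians of 0.95 and 1.06. The trophoblast sums were 82.4 to 90.2 CPM untreated and 155 to 165 CPM after OHT in HDAC1-E63R and 79.5 to 93.4 and 101 to 106 CPM in HDAC1-Y48E, against 202 to 217 and 216 to 248 CPM in HDAC1-WT. Of 9 ESC markers, 6 were lower in HDAC1-Y48E, among them Esrrb (-1.64), Pou5f1 (-1.52), Nanog (-1.29) and Tdgf1 (-1.18). Of all genes, 5.84% were called lower there. The medians of the ESC list were -0.22 in HDAC1-E63R, -0.09 without untreated replicate 3, and -1.11 in HDAC1-Y48E. In HDAC1-Y48E the ESC sum was 6124 to 6226 CPM untreated and 2722 to 2875 CPM after OHT. In HDAC1-WT it was 8023 to 8191 and 8452 to 9342 CPM. Of the ESC markers 0 were called in HDAC1-E63R by edgeR or DESeq2, with 7 at an unadjusted p under 0.05 (36.6% of all genes), where the sum was 5593 to 9060 and 4834 to 5167 CPM. In the HDAC1-WT line 0 of the 113 tested genes of these lists were called by edgeR and 0 by DESeq2, and 17 had an unadjusted p under 0.05 (9.86% of all genes). The part of these programmes in the changes of the contractile genes was not tested.

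**Figure D5:**
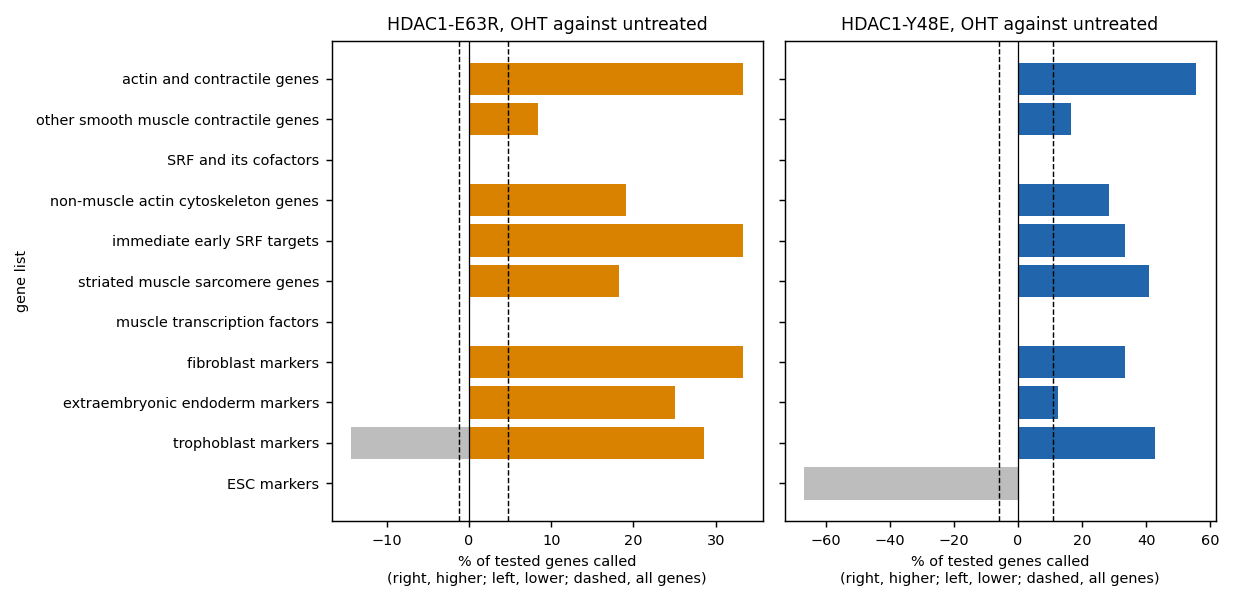
Share of the tested genes of each list shown that were called after OHT in HDAC1-E63R (left) and HDAC1-Y48E (right), in percent, with higher calls to the right of 0 and lower calls to the left, and dashed lines at the shares of all genes (4.74% and 10.8% higher, 1.18% and 5.84% lower). In both lines the higher calls pass the dashed line in most lists, not only in the contractile and striated muscle genes. The lists without higher calls are SRF and its cofactors, the muscle transcription factors and the ESC markers. Lower calls are seen for the ESC markers of HDAC1-Y48E and for the trophoblast marker Ascl2 in HDAC1-E63R.

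The genes whose pattern over the 6 groups was most like those of Acta2 and Tagln were found among 12630 genes by the root mean square difference of centred log2 levels. For Acta2 these were Sox11 (0.457), Crmp1 (0.509), Pkdcc (0.534), Sox3 (0.571) and Pdlim3 (0.583). For Tagln they were Usp17lc (0.186), the antisense gene Gm48529 (0.247), Gm21818 (0.268), Pramef25 (0.287) and Gm14742 (0.379). The Tagln neighbours other than Gm48529 were at or below 0.423 CPM in the HDAC1-WT groups, whereas the Acta2 neighbours had between 0.863 and 7.69 CPM there.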

How the data were processed

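The deposited files hold, per the labels, RNA-seq counts of 18 libraries (3 rescue lines, untreated and OHT, 3 each). The authors mapped paired reads to mm10, and the submitters' processing notes name HISAT2 2.1.0, SAMtools 1.9 and HTSeq. The deposited values are raw counts per gene symbol. The use of strand in counting is not given in the sources used here. Each library also lists 5 entries without a gene, 59.4% to 61.2% of its total, and these were dropped.

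After a filter on low counts (edgeR filterByExpr, 18791 of 53672 genes remained) and TMM scaling, a quasi-likelihood model of the 6 groups was fitted to all libraries (edgeR 4.0.16, R 4.3.3), with Benjamini-Hochberg adjustment over all tested genes. A call needed an adjusted p under 0.01 and a more than 2-fold change, which are the study's limits. The study used DESeq2, and DESeq2 1.42.0 was run as an alternative because the quasi-likelihood test is the main test here. Pooled ratios have exact 95% binomial intervals, which cover counting error only. Positions and exon lengths are from GENCODE M21, which held 96.9% of the symbols, and promoters are from RefSeq (GRCm38.p6). The 10 genes were described in every group, and genes of lists were named when called, at most 4 a list, by size of change among those with a group mean of at least 1 CPM. Sums of a marker list use all its genes. The list markers and other genes named without a call or beyond the 4 (Smtn, Lmod1, Srf, Myocd, Actb, Actg1, Zyx, Myog, Myf5, Thy1 and Tgfbr2 in HDAC1-WT, Smad3, Pdgfrb, Twist1, Gata6, Lama1, Gata4) were chosen after their values were seen. The genes and lists were chosen with earlier results of these data known. Alternatives tried were no filter, relative log expression factors, only the libraries compared, a replicate block, DESeq2, adjusted p alone and each library left out in turn. The lists without HDAC1-E63R untreated replicate 3 were added after seeing the data. The counts and median of the TGF-beta list are not reported here.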

Additional observations from a re-analysis of the deposited data

Results flagged for a closer look

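The change with OHT in the HDAC1-Y48E line differed from that in the HDAC1-WT line for 3 genes by edgeR's test of the difference itself. On the log2 scale the difference was 3.01 for Cnn1 (adjusted p = 0.00956), 3.01 for Myl9 (adjusted p = 0.00113) and 0.95 for Tpm1 (adjusted p = 6.44e-05), the last under the fold limit. For Cnn1 and Myl9 the HDAC1-WT libraries had between 2 and 20 counts each, and the fold of these genes in that line rests on them. The 3 OHT-treated HDAC1-Y48E libraries were above all 3 untreated ones for each of these genes.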

How the results depend on the processing

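The 5 calls with OHT in the HDAC1-Y48E line and the Acta1 and Myl9 calls in the HDAC1-E63R line were kept in every alternative run. Without a filter on low counts, the genes called numbered 1 in the HDAC1-WT line (Acta2, -2.56), 1 for the difference of OHT changes between HDAC1-E63R and HDAC1-WT (Acta1), 5 for that between HDAC1-Y48E and HDAC1-WT, 1 for that between HDAC1-Y48E and HDAC1-E63R (Tagln) and 1 between the untreated mutants (Acta1), and this fit tests more genes. With DESeq2 they numbered 4 for the HDAC1-Y48E and HDAC1-WT difference and 1 between the untreated mutants. In untreated HDAC1-E63R against HDAC1-WT they numbered 5 on adjusted p alone and 1 with only the libraries compared, which uses fewer samples. Leaving out each library in turn gave 3 to 4 calls for HDAC1-E63R with OHT, 1 to 5 for untreated HDAC1-E63R and 2 to 4 for untreated HDAC1-Y48E against HDAC1-WT, and 0 to 1 between the untreated mutants. It gave 5 to 7 for OHT-treated HDAC1-E63R against HDAC1-WT, 2 to 3 between the OHT-treated mutants, where all libraries gave 4, and 0 to 3 for the HDAC1-Y48E and HDAC1-WT difference. The cause of these changes was not tested.

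Same-numbered replicates did not deviate together (correlations of deviations from -0.0794 to 0.0568), so they share only a number. With a replicate block, 3 genes were called with OHT in HDAC1-E63R and 5 in HDAC1-Y48E, as without it, and Myl9 was also called in untreated HDAC1-E63R against HDAC1-WT (1.65), as it was with relative log expression factors, without a filter and with DESeq2, which gave 4 calls each in place of 3. The Myl9 call in untreated HDAC1-Y48E against HDAC1-WT was lost with only the libraries compared (1.77, edgeR adjusted p = 0.0297). Of the single-gene changes with OHT, 18 values changed sign, all with 1 library left out and for genes that were not called. The ranges in HDAC1-WT were -0.36 to 1.18 for Tagln, -0.064 to 0.060 for Tpm1, -0.11 to 0.022 for Tpm2, -0.14 to 0.18 for Des, -0.28 to 0.77 for Cnn1, -0.029 to 1.57 for Myl9 and -0.28 to 1.44 for Acta1. They were -0.27 to 0.42 for Acta2 and -0.34 to 0.024 for Tpm2 in HDAC1-Y48E and -0.25 to 0.24 for Tpm2 in HDAC1-E63R. Without HDAC1-E63R untreated replicate 3, OHT calls in that line numbered 3 for the 10 genes, 1 for other smooth muscle, 3 for non-muscle actin cytoskeleton and 6 for striated muscle genes. Depth limits Actc1, Actg2 and the HDAC1-WT values of most of these genes, which rest on few counts a library.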
